A study of Mus musculus with 12 samples.

Results

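The regions described here are the ESRRB-bound sites around 10 genes of the general pluripotency programme of mouse embryonic stem (ES) cells other than Oct4 and Sox2: Sall4, Sall1, Zfp281, Utf1, Dppa2, Dppa4, Lin28a, Dppa5a, Fbxo15 and Tcl1. A region of the deposited count table was assigned to one of these genes when that gene was its nearest RefSeq protein-coding gene and the region's centre lay inside the gene or within 100 kb of it. This gave 126 of 86201 regions. The assignment to genes used no counts, but the regions themselves overlap the authors' peak lists, which were made from the same ChIP libraries. The distance limit kept a Tcl1 region at 99.75 kb, with a mean CPM (reads scaled to a common library total) of 3.79 with Nanog and 4.82 without, and left out a Dppa4 region at 102.8 kb, with 3.49 CPM with Nanog and 3.97 CPM without. In all, 27 regions nearest to one of the genes lay beyond the limit, among them a Sall1 region at 113 kb with 65.2 CPM with Nanog and 64.8 CPM without.

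The study measured by ChIP-seq where ESRRB sits on DNA in ES cells in the presence and in the absence of NANOG. The groups were NanogKO:Esrrb:Nanog (44JN) cells, called here the line with Nanog, and NanogKO:Esrrb (44J) cells, the line without Nanog. Both carry the Nanog knockout and the Esrrb element of the title, and all samples bear the same cell line label, N{delta}:cE:iN. Cells were ES cells in serum with leukaemia inhibitory factor (LIF) and no treatment. Each line had 3 ESRRB ChIP libraries, A, B and C, and 3 input libraries, which were not used here. The labels do not say how Nanog was returned, whether a line is a single clone, which samples were fixed with formaldehyde alone and which also with the DSG crosslinker, or whether the libraries came from separate cultures. The p-values therefore rest on library-to-library spread, part or all of which may be technical. Counts in regions totalled 6689166 to 8382646 reads per library with Nanog and 2734338 to 5193707 without, so small regions were counted less precisely without Nanog. The counts are of chromatin and not of RNA, so the cell type could not be checked against marker genes, and binding in fewer cells cannot be told apart from less binding per cell.

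ESRRB is an orphan nuclear receptor that binds an extended response element as a monomer and works beside OCT4, SOX2 and KLF factors in naive pluripotent cells. NANOG is a homeodomain factor that binds many of the same enhancers, and Esrrb is known as one of its main targets, able to stand in for it in self-renewal. The 10 genes described here encode factors found in most ES cells: zinc-finger regulators, chromatin proteins, RNA-binding proteins, a ubiquitin ligase subunit and a cofactor of AKT.

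Start-site sequences of 5 of the 10 genes (Sall1, Lin28a, Utf1, Zfp281 and Tcl1) were matched in RefSeq, in 7 windows that run from 250 bases before to 50 bases after an annotated start. Sall4, Dppa2, Dppa4, Dppa5a and Fbxo15 were not matched. An ESRRB region overlapped 4 of the 7 windows, and these 4 are printed because they show where the counted region meets the start of the gene. They are given 5′ to 3′ on the gene's strand, from RefSeq on build GRCm38.p6, with the bases inside the deposited region in capitals.
Tcl1, chr12:105222688-105222987, minus strand: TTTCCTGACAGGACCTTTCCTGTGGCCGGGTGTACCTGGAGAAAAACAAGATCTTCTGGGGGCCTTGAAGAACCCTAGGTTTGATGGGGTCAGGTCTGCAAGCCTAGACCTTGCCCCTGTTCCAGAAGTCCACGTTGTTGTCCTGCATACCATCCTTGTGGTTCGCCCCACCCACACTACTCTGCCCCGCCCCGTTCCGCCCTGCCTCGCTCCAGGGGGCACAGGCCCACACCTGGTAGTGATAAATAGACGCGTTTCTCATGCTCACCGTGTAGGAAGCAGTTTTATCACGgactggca
Utf1, chr7:139943606-139943905, plus strand: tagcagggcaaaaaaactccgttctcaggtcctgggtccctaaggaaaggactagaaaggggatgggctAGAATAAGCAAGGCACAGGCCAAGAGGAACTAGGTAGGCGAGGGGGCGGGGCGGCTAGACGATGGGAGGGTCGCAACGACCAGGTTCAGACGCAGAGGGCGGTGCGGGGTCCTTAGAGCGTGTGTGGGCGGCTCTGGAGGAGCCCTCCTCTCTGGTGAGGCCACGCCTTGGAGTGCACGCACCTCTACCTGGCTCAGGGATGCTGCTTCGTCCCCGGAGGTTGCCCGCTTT
Lin28a, chr4:134018767-134019066, minus strand: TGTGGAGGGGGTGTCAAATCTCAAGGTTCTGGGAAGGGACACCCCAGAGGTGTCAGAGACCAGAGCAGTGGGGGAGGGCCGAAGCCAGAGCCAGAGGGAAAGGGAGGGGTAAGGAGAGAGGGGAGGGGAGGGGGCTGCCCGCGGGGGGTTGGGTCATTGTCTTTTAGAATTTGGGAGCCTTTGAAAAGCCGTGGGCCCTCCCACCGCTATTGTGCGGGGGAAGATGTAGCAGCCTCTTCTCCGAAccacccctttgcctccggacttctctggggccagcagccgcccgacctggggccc
Sall1, chr8:89042813-89043112, minus strand: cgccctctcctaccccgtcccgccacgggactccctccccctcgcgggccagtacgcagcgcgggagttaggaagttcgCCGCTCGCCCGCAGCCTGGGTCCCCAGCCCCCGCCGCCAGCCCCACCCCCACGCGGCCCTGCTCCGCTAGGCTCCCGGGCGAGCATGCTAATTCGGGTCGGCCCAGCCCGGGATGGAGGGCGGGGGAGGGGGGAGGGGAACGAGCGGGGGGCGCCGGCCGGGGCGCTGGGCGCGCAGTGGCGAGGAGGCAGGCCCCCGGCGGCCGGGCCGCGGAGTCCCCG
The overlap was 292 bases for Tcl1, 231 for Utf1, 245 for Lin28a and 221 for Sall1. The window of Zfp281 was 11002 bases from its nearest region. Neither the extended ESRRB element TCAAGGTCA, nor its core AAGGTCA, which every match of the longer motif also holds, nor the octamer ATGCAAAT was found on either strand in the 7 windows (0 of 7 for each). Of all 32851 RefSeq windows of this length, 0.423% held TCAAGGTCA, 4.72% AAGGTCA and 1.74% ATGCAAAT. No match means only that these letters are not in these windows. Of the 4 regions that overlap a printed window, the one at Tcl1 was higher with Nanog (described with that gene), and those at Utf1, Lin28a and Sall1 were not called.

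ESRRB signal at the pluripotency genes changed with Nanog in both directions, as it did over all regions tested. At 6 of the 10 genes both directions were called among the regions of the gene, a share that was not counted over all genes. DESeq2 called 0 regions higher at Sall4 and 0 at Fbxo15, so both directions did not stand there. Of 126 regions, 123 had enough reads to be tested; the others, 2 at Sall1 and 1 at Tcl1, stayed out of the test by region. With Nanog, 14 regions (11.4%) were higher and 19 (15.4%) were lower at a Benjamini-Hochberg adjusted p under 0.05 (edgeR quasi-likelihood test over 84892 regions), and 90 were not called. Over all regions tested, 9.42% were called higher and 9.78% lower, and the difference of the shares from this background was not tested. The larger number of lower regions depended on the method, with 18 higher and 15 lower under a loess offset, 15 and 15 with column totals, and 10 and 10 in DESeq2. The median log2 fold change was 0.0019, with the middle 50% of values between -0.28 and 0.27, against a median of -0.01 and a range of -0.33 to 0.32 over all regions. Both counts depend on single libraries. The higher count was 8 without library A and 7 without library C of the line without Nanog, and 6 without library B and 9 without library C of the line with Nanog. The lower count was 10 without library A of the line without Nanog, and 12, 8 and 10 without libraries A, B and C of the line with Nanog. No called region changed sign in any of the 17 alternatives, and 10 of the 33 calls held in every alternative in which the region was tested.

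**Figure D1:**
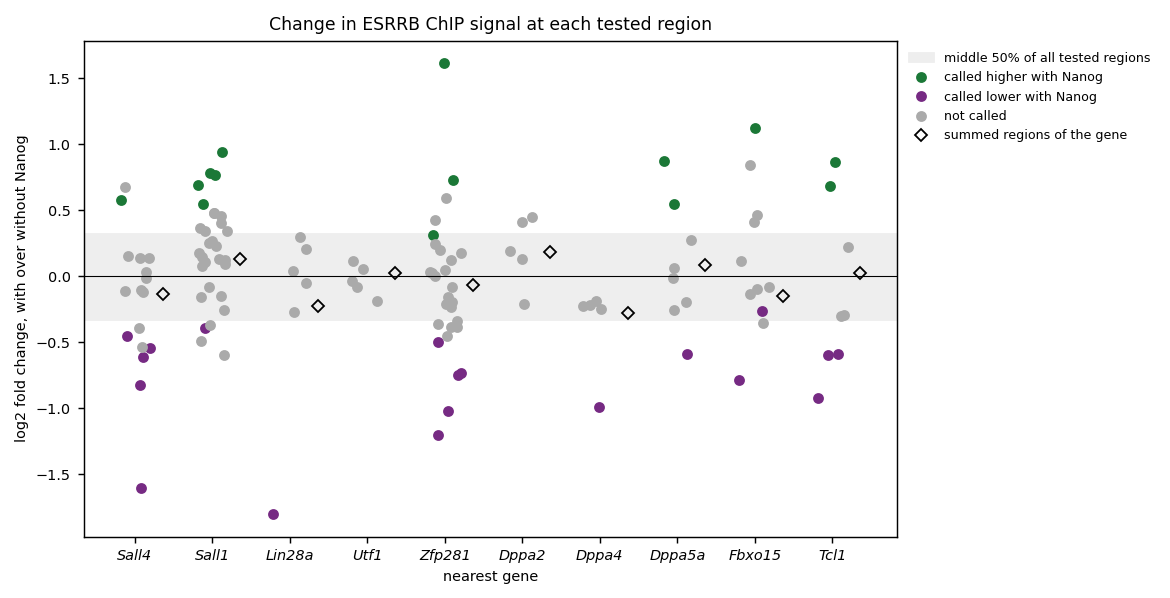
Log2 fold change of ESRRB ChIP counts, with over without Nanog, at each of the 123 tested regions (points, coloured by call) and for the summed regions of each gene (open diamonds); the grey band holds the middle 50% of all tested regions. Sall4, Sall1, Zfp281, Dppa5a, Fbxo15 and Tcl1 each have regions called in both directions, and the diamonds lie between -0.28 and 0.18.

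Calls were found at 8 of the 10 genes. Regions in both directions were found at Sall4, Sall1, Zfp281, Dppa5a, Fbxo15 and Tcl1, and only lower regions at Lin28a and Dppa4 (1 each). The share of all genes with a call, or with calls in both directions, was not counted. A gene with more tested regions has more chances of a call. At Utf1 and Dppa2, edgeR, DESeq2 and limma-voom each called 0 of 5 regions, and 0 of 5 had an unadjusted p under 0.05 in edgeR. Summed over all regions of a gene, 0 of the 10 genes were called higher and 0 lower (edgeR, adjusted p over 15911 genes), against 9.93% called higher and 14.5% called lower among all genes tested. At an unadjusted p under 0.05 in edgeR, 1 gene was higher (Sall1) and 3 were lower (Sall4, Dppa4 and Fbxo15). The share of all genes past that unadjusted threshold was not counted, so no lean to lower can be read from this. DESeq2 and limma-voom called 0 in both directions. Dropping library B from the line without Nanog called 2 summed genes higher (Sall1 and Dppa2) and 1 lower (Sall4). Leaving out library C of that line called 1 lower (Fbxo15). With regions limited to 50 kb, the Sall1 and Tcl1 sums were called higher.

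A region-by-line test, added after the results were seen, asked whether the regions of a gene changed unequally (edgeR's differential-usage test, Benjamini-Hochberg over 12103 genes). It passed for 7 of the 10 genes, namely Sall4, Sall1, Zfp281, Lin28a, Dppa5a, Fbxo15 and Tcl1, and not for Utf1 (adjusted p = 0.654), Dppa2 (0.511) or Dppa4 (0.268). It passed for 46.3% of all genes tested, and for 69.4% of those with at least 5 tested regions, as all 10 genes here had. The 7 of 10 here lie close to this second share, and the difference was not tested. Sall1 (30 tested regions), Zfp281 (28) and Sall4 (17) had many more than 5. No share matched on the number of regions was counted. The same count, 7, came out on leaving out each library in turn.

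**Figure D2:**
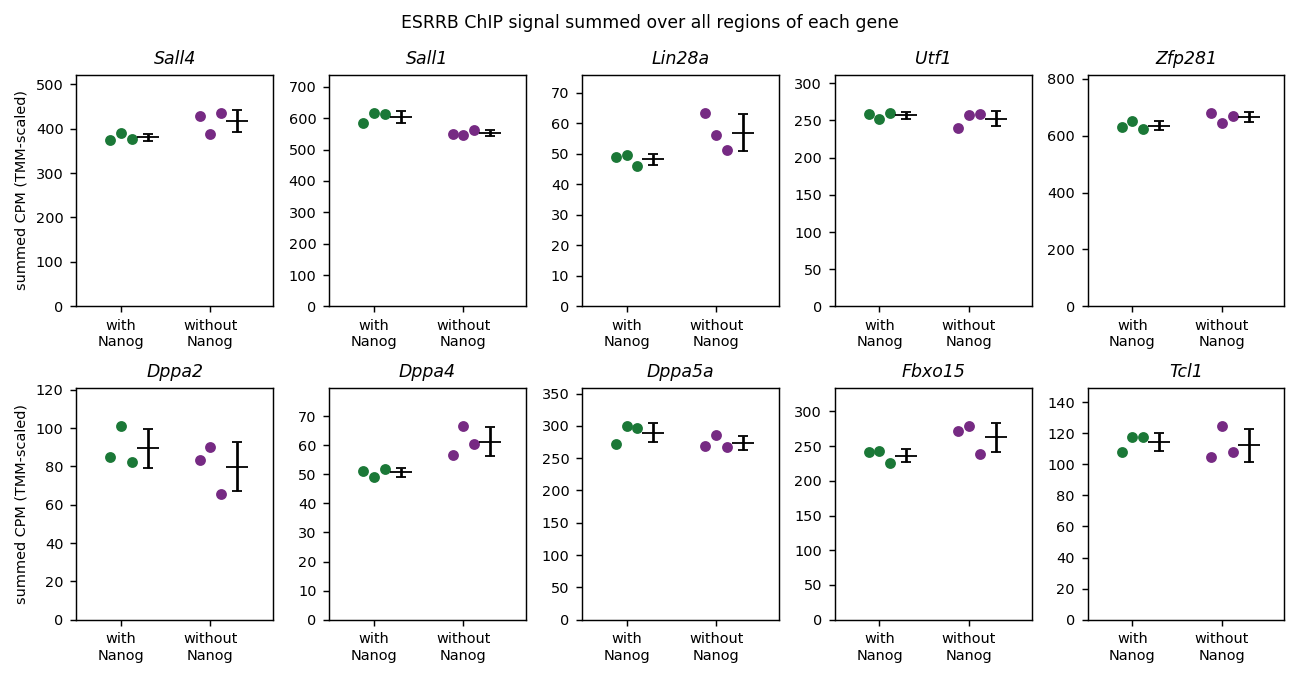
Summed CPM over all regions of each gene in the 3 libraries with Nanog (green) and the 3 without (purple), with the mean and SD beside the points. The points of the lines do not overlap for Sall1, which is higher with Nanog, or for Lin28a and Dppa4, which are lower, but no sum was called. The share of all genes without overlap was not counted.

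Among the zinc-finger factors, Sall4 is a spalt-like protein that sustains ES cell proliferation and Oct4 expression. Its 17 regions held 1 higher and 5 lower calls, and the 5 lower regions lay from 10.02 to 40.52 kb beyond the higher-coordinate end of the gene, while the higher one lay inside it. That region (chr2:168755421-168756143) had 17.5, 18.9 and 14.3 CPM with Nanog, against 12.7, 9.54 and 11.8 CPM without (log2 fold change 0.58 ± 0.20, edgeR adjusted p = 0.0367). Its call, on which the presence of both directions at Sall4 rests, was lost in 6 of 17 alternatives: DESeq2, thinning, and leaving out library B or C without Nanog or A or B with Nanog (largest adjusted p = 0.217). The strongest region, inside the gene (chr2:168764130-168766594), had 115, 113 and 111 CPM with Nanog, against 103, 96.8 and 105 CPM without. The libraries did not overlap, but the log2 fold change of 0.15 ± 0.10 (SE) was not called (adjusted p = 0.302). The region with the smallest p (chr2:168807597-168807845, 40.52 kb beyond the end) had 4.23, 1.42 and 4.97 CPM with Nanog, against 13.8, 4.77 and 13.3 CPM without. Library B was the lowest of its line in both lines, so the ranges overlapped. Its signal fell by 1.61 ± 0.34 on the log2 scale (edgeR, adjusted p = 0.00107), and DESeq2 did not call it (adjusted p = 0.0962). Over the 4 other lower regions the log2 fold change ran from -0.82 to -0.45. The nearest 3 of these, at 10.02, 19.16 and 24.3 kb, each lost the call on leaving out at least 1 library: library C without Nanog for the last (largest adjusted p = 0.0841), library A without Nanog or B with Nanog for the one at 19.16 kb (0.0954), and every library except B without Nanog for the one at 10.02 kb (0.171). Thinning to equal totals also lost the calls at 10.02 and 19.16 kb, and DESeq2 the one at 10.02 kb. The call of the remaining one, at 39.62 kb, was lost in 11 of 16 alternatives (0.255). Summed over the gene, Sall4 had 380 ± 7.50 CPM with Nanog and 417 ± 24.9 CPM without (SD, n = 3 each), a log2 fold change of -0.13 ± 0.06 (edgeR, adjusted p = 0.108).

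Sall1, a spalt-like paralogue that binds the NuRD corepressor, had the most regions, 32, of which 30 were tested. All 5 regions called higher lay on the downstream side of the gene, 11.02 to 77.11 kb from it, and the 1 called lower lay upstream, 23.52 kb from the nearest start. The region with the smallest p (chr8:89015538-89016913, 11.02 kb downstream) had 69.4, 81.4 and 77.3 CPM with Nanog, against 42.9, 52.2 and 38.4 CPM without. Every library with Nanog exceeded every library without it. The log2 fold change was 0.78 ± 0.13 (edgeR, adjusted p = 4.82e-05), and the call held in all 17 alternatives. So did that of the neighbouring region at 14.66 kb (chr8:89012254-89012907), singled out after its values were seen, with 22.8, 24.4 and 21.7 CPM with Nanog and 12.7, 16.0 and 13.7 CPM without (log2 fold change 0.69 ± 0.17, edgeR adjusted p = 0.00483). The strongest region, 23.59 kb downstream (chr8:89002943-89004356), differed less, with 92.6, 97.9 and 104 CPM with Nanog against 85.8, 76.8 and 105 CPM without. Its lines overlapped, and the log2 fold change of 0.13 ± 0.11 was not called (edgeR, adjusted p = 0.457). The upstream region (chr8:89067167-89068202), the second strongest, had 86.5, 67.6 and 81.2 CPM with Nanog, against 109, 95.1 and 105 CPM without. Its signal fell by 0.39 ± 0.11 on the log2 scale (edgeR, adjusted p = 0.0113), a call lost with the loess offset and without library A of the line without Nanog or library B of the line with Nanog (largest adjusted p = 0.116). At the 3 other regions called higher the log2 fold change was 0.55, 0.94 and 0.77, and each lost its call without at least 1 library; at the strongest of them, 35.62 kb from the gene, this was library B with Nanog (adjusted p = 0.0895). Summed, Sall1 had 604 ± 18 CPM with Nanog and 553 ± 8.49 CPM without (log2 fold change 0.13 ± 0.05, edgeR adjusted p = 0.0794).

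Zfp281, a Krüppel-type zinc-finger protein that occupies many NANOG and OCT4 sites and can restrain Nanog itself, had 28 regions, none inside the gene, and the smallest p of the 10 genes in the region-by-line test (adjusted p = 6.40e-16). The region 11.54 kb upstream of its start (chr1:136613073-136613649) had 31.6, 31.1 and 33.4 CPM with Nanog, against 8.57, 10.4 and 11.8 CPM without. The lines were far apart, and the log2 fold change was 1.61 ± 0.17 (edgeR, adjusted p = 1.09e-07; 1.53 to 1.75 over the alternatives). The deposited peak lists, made from the same libraries, name this region only for the line with Nanog. The alternatives use the same set of regions and cannot show how far that listing shaped the size of the change. In the opposite direction, the region 65.41 kb downstream of the start (chr1:136689778-136690834) had 27.1, 28.5 and 26.1 CPM with Nanog, against 50.3, 55.2 and 59.2 CPM without. It fell by 1.02 ± 0.13 on the log2 scale (edgeR, adjusted p = 1.61e-06). A region 21.48 kb downstream (chr1:136646005-136646760) likewise had 37.9, 34.8 and 39.9 CPM with Nanog, against 67.9, 54.7 and 67.1 CPM without, and fell by 0.75 ± 0.13 (edgeR, adjusted p = 7.61e-05). Both were singled out after their values were seen, and the calls of all 3 regions held in all 17 alternatives. The strongest region, 70.98 kb downstream (chr1:136694928-136696837), had 101, 111 and 100 CPM with Nanog and 92.8, 93.1 and 87.3 CPM without, a log2 fold change of 0.20 ± 0.10 that was not called (edgeR, adjusted p = 0.186). The 5 other calls were 2 higher (0.31 and 0.73) and 3 lower (-0.50, -0.74 and -1.20); each was lost without at least 1 library (largest adjusted p over all alternatives 0.118 to 0.229). Summed over the gene, the changes left 635 ± 14.8 CPM with Nanog and 664 ± 17.5 CPM without (log2 fold change -0.06 ± 0.05, edgeR adjusted p = 0.392).

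**Figure D3:**
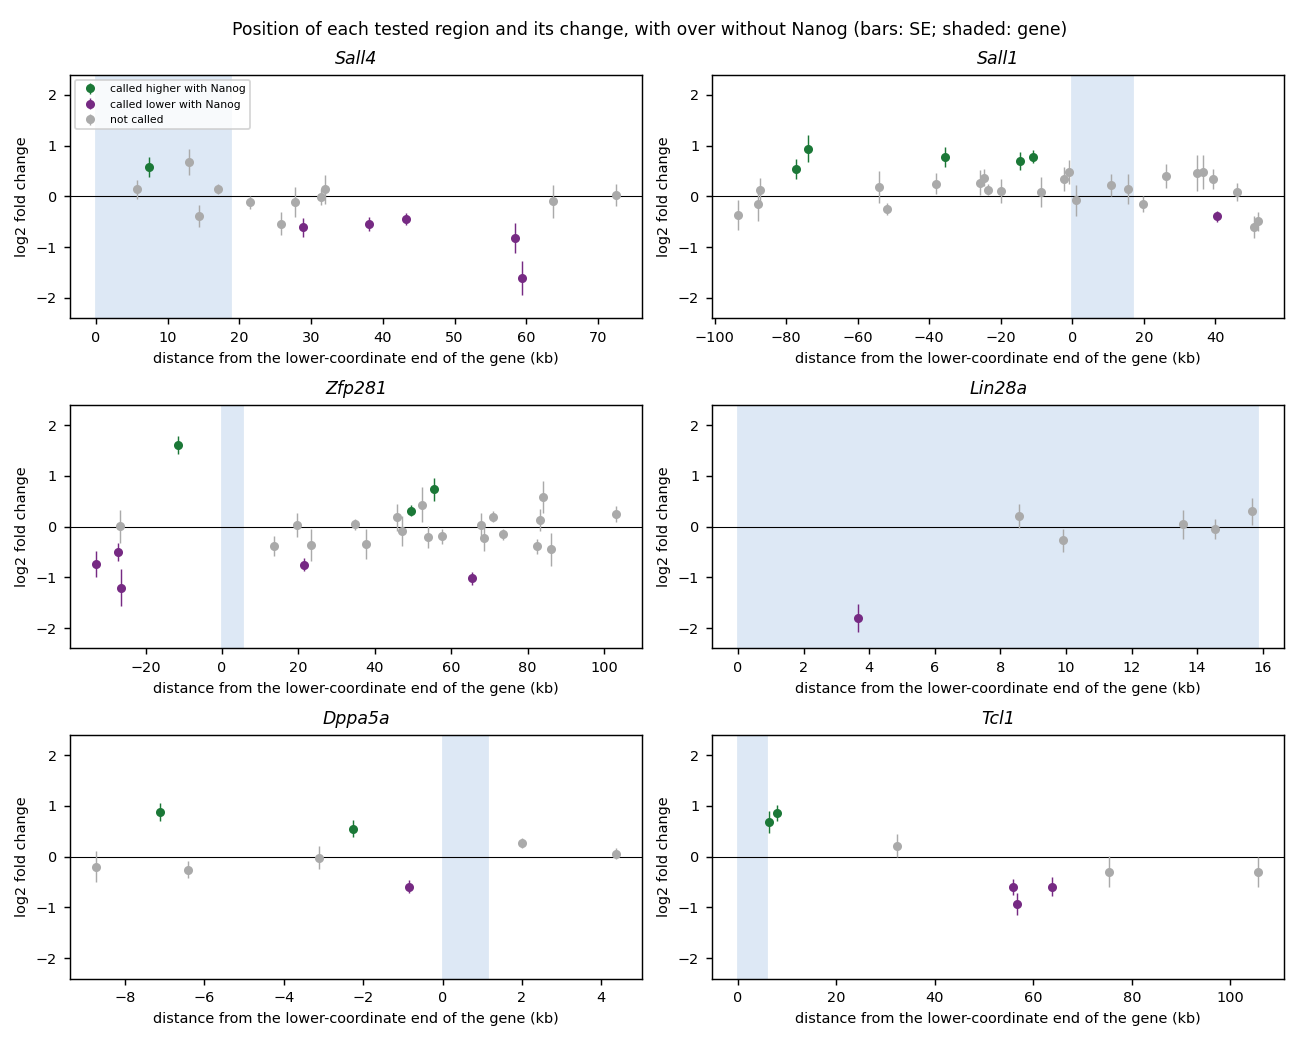
Log2 fold change, with over without Nanog, of each tested region (points, with SE) against its distance in kb from the lower-coordinate end of the gene (shaded) for 6 genes. Higher (green) and lower (purple) calls stand on different sides of Sall1 and at different distances from Tcl1; both kinds occur on each side of Zfp281, and all 3 calls of Dppa5a lie on its lower-coordinate side.

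Of the chromatin proteins, Utf1 binds chromatin at developmental genes and is known for an enhancer 3′ of the gene that OCT4 and SOX2 occupy together. All of its 5 regions lay within 7.142 kb of the gene. ESRRB signal was strongest 3′ of it, at 5.17 kb (chr7:139949075-139951489), with 118, 115 and 121 CPM with Nanog, against 104, 114 and 108 CPM without. The log2 fold change was 0.11 ± 0.10 (edgeR, adjusted p = 0.450). The region nearest to the gene on that side, at 0.766 kb (chr7:139945432-139946324), had 49.4, 46.6 and 49.4 CPM with Nanog and 44.7, 45.4 and 49.6 CPM without. At the start printed above (chr7:139943675-139944548) the levels were lower in both lines, 19.98, 16.8 and 16.4 CPM with Nanog and 21.6, 16.8 and 21.8 CPM without. Over the 5 regions the log2 fold change ran from -0.19 to 0.11, and the sum was 257 ± 4.24 CPM with Nanog and 252 ± 10.0 CPM without (log2 fold change 0.02 ± 0.06, edgeR adjusted p = 0.817).

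Dppa2 and Dppa4 are neighbouring genes for SAP-domain proteins that bind chromatin as a pair and help to switch on genes of the early embryo. Each had 5 regions. The strongest region of Dppa2 sat at the lower-coordinate edge of the gene (chr16:48309963-48310544), with 33.2, 41.2 and 35.8 CPM with Nanog, against 34.7, 36.7 and 30.0 CPM without. The lines overlapped there (log2 fold change 0.13 ± 0.14, edgeR adjusted p = 0.563) and at each of the other Dppa2 regions, whose log2 fold changes ran from -0.21 to 0.45. At Dppa4 all 5 estimates were negative, from -0.99 to -0.19. Its strongest region, 3.462 kb beyond the higher-coordinate end (chr16:48297397-48298112), had 31.9, 29.8 and 31.2 CPM with Nanog, against 37.3, 38.7 and 34.9 CPM without; the libraries did not overlap, but the change of -0.25 ± 0.14 was not called (edgeR, adjusted p = 0.204). The 1 call at Dppa4 was a weak region 12.92 kb before the gene (chr16:48270751-48270887), with 2.48, 2.12 and 2.42 CPM with Nanog, against 2.98, 5.61 and 4.90 CPM without. It fell by 0.99 ± 0.30 on the log2 scale (edgeR, adjusted p = 0.0181), and the call was lost on leaving out any library but A of the line without Nanog (adjusted p 0.0559 to 0.0888). Thinning to equal totals lost it by more (log2 fold change -0.67, edgeR adjusted p = 0.266). Summed, Dppa2 had 89.5 ± 10.0 CPM with Nanog and 79.8 ± 12.7 CPM without (log2 fold change 0.18 ± 0.11, edgeR adjusted p = 0.260). Dppa4 had 50.7 ± 1.55 CPM with Nanog and 61.3 ± 4.93 CPM without (log2 fold change -0.28 ± 0.10, edgeR adjusted p = 0.0563).

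Of the RNA-binding proteins, Lin28a blocks maturation of let-7 microRNAs. All of its 6 regions lay inside the gene, in exons or introns that the gene table used here does not separate, and they were weak. Its 1 call was the region 11.81 kb downstream of the start (chr4:134006875-134007129), which the deposited peak lists name only for the line without Nanog. It had 4.37, 2.36 and 3.19 CPM with Nanog, against 9.32, 14.9 and 10.0 CPM without. The lines did not overlap, and the signal fell by 1.80 ± 0.27 on the log2 scale (edgeR, adjusted p = 1.82e-05), a call that held in all 16 alternatives that tested it. The other 5 regions overlapped between lines. The strongest of them (chr4:134017556-134018187, 0.945 kb downstream of the start) had 13.8, 17.2 and 15.5 CPM with Nanog, against 20.1, 12.6 and 16.3 CPM without (log2 fold change -0.05 ± 0.19, edgeR adjusted p = 0.887). The region at the start, printed above, had 6.56, 7.31 and 7.13 CPM with Nanog and 5.59, 7.57 and 4.31 CPM without. Summed, Lin28a had 48.3 ± 1.86 CPM with Nanog and 57.0 ± 6.05 CPM without (log2 fold change -0.22 ± 0.11, edgeR adjusted p = 0.143).

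Dppa5a, a KH-domain RNA-binding protein and marker of ES cells, had 8 regions within 8.734 kb of a short gene, none centred inside it. Neighbouring regions on its lower-coordinate side changed in opposite directions. At 7.126 kb (chr9:78359676-78360177) the signal was 21.7, 25.9 and 27.5 CPM with Nanog, against 11.2, 16.0 and 13.5 CPM without, a log2 fold change of 0.87 ± 0.18 (edgeR, adjusted p = 0.000772). At 0.855 kb (chr9:78365808-78366587), singled out after its values were seen, it was 35.4, 38.3 and 38.7 CPM with Nanog, against 65.2, 58.3 and 47.6 CPM without, and fell by 0.59 ± 0.13 on the log2 scale (edgeR, adjusted p = 0.00169). The lines did not overlap at either, and both calls held in all 17 alternatives. A region between them, at 2.247 kb, was also called higher (log2 fold change 0.55 ± 0.17, edgeR adjusted p = 0.02005), a call lost without library A of the line without Nanog or library B of the line with Nanog (largest adjusted p = 0.158). On the other side of the gene, the strongest region (chr9:78367990-78370101) had 89.5, 93.5 and 93.5 CPM with Nanog, against 75.7, 76.0 and 77.1 CPM without. The libraries did not overlap, and the log2 fold change of 0.27 ± 0.10 missed the threshold (edgeR, adjusted p = 0.0610). It passed in 7 of 17 alternatives, among them limma-voom (adjusted p = 0.0451), column totals (0.0287), the loess offset (0.00302) and leaving out library B of the Nanog-free line (0.0457). Summed, Dppa5a had 289 ± 14.8 CPM with Nanog and 274 ± 10.5 CPM without (log2 fold change 0.08 ± 0.06, edgeR adjusted p = 0.390).

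Fbxo15, an F-box subunit of ubiquitin ligases whose promoter is a classic target of OCT4 and SOX2, had the highest signal at a single region of the 10 genes. This region, at the lower-coordinate edge of the gene (chr18:84933315-84935260), had 146, 135 and 135 CPM with Nanog, against 177, 167 and 154 CPM without. It held 58.6% of the summed signal of the gene with Nanog and 63.3% without. It fell by 0.26 ± 0.09 on the log2 scale (edgeR, adjusted p = 0.0467), but under the loess offset the log2 fold change was -0.05 (adjusted p = 0.708). The call was lost in 11 of 17 alternatives, among them leaving out any library but C of the line without Nanog (adjusted p 0.0503 to 0.185). The region with the smallest p, 6.698 kb before the gene (chr18:84927635-84928074), had 8.75, 6.13 and 6.62 CPM with Nanog, against 14.5, 14.6 and 8.82 CPM without. Library C without Nanog came close to library A with Nanog, with no overlap. The signal fell by 0.79 ± 0.24 on the log2 scale (edgeR, adjusted p = 0.0184), a call lost without library A or B of the line without Nanog, or B or C of the line with Nanog (adjusted p 0.0668 to 0.0948). The 1 region called higher, inside the gene, was near the bottom of the range, at 3.35, 4.72 and 2.80 CPM with Nanog and 0.373, 2.81 and 1.57 CPM without, with overlap; 4 of the 6 leave-outs lost that call (largest adjusted p = 0.199). Summed, Fbxo15 had 236 ± 9.54 CPM with Nanog and 263 ± 20.8 CPM without (log2 fold change -0.15 ± 0.07, edgeR adjusted p = 0.124).

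Tcl1, a coactivator of AKT kinases needed for ES cell self-renewal, had 9 regions, of which 8 were tested. The 2 regions nearest to the start were higher with Nanog and 3 distal ones upstream were lower. The strongest region, 2.011 kb upstream of the start (chr12:105224227-105225269), also had the smallest p. It had 39.1, 43.5 and 43.5 CPM with Nanog, against 24.98, 26.6 and 18.8 CPM without, and every library with Nanog exceeded every library without it. The log2 fold change was 0.86 ± 0.15 (edgeR, adjusted p = 0.000125) and the call held in all 17 alternatives. The region over the start printed above (chr12:105222696-105223283) had 13.0, 21.5 and 17.5 CPM with Nanog, against 9.32, 12.3 and 10.6 CPM without (log2 fold change 0.68 ± 0.21, edgeR adjusted p = 0.0204); this call was lost without library A or C of the line without Nanog, or B or C of the line with Nanog (largest adjusted p = 0.169). At 50.7 kb upstream (chr12:105273191-105273693), a region singled out after its values were seen had 7.44, 7.55 and 7.52 CPM with Nanog, against 10.8, 17.4 and 14.1 CPM without. It fell by 0.93 ± 0.21 on the log2 scale (edgeR, adjusted p = 0.00259), and the call held in all 17 alternatives. The other distal calls, at 49.85 and 57.84 kb, had log2 fold changes of -0.60 and -0.59. The nearer was lost without library A with Nanog (edgeR, adjusted p = 0.0525). The farther was lost without library C of the line without Nanog or B or C of the line with Nanog. DESeq2 and thinning lost the farther one too (largest adjusted p over all alternatives 0.201). Summed over all regions the line with Nanog had 114 ± 5.52 CPM and the line without 112 ± 10.6 CPM (log2 fold change 0.03 ± 0.09, edgeR adjusted p = 0.860). The sum within 50 kb, which leaves out the region at 50.7 kb and those beyond, was higher with Nanog (log2 fold change 0.32, edgeR adjusted p = 0.0257).

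**Figure D4:**
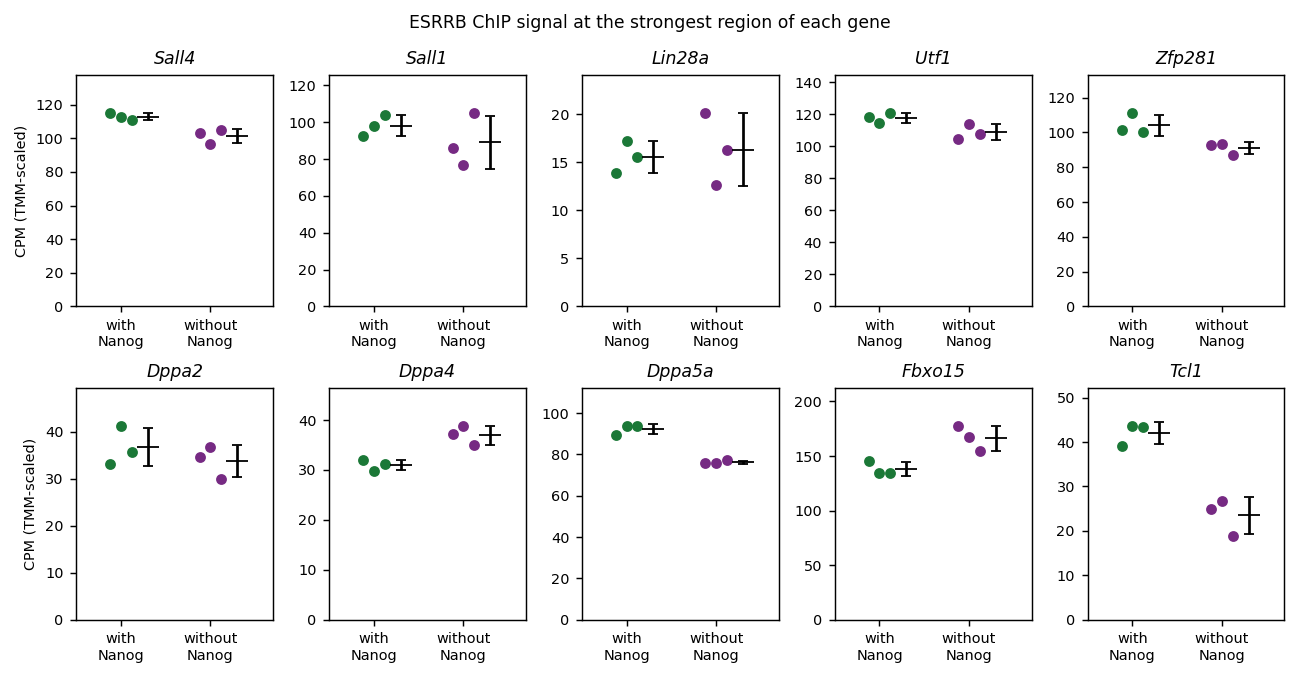
ESRRB ChIP signal in CPM at the strongest region of each gene in the 3 libraries with Nanog (green) and the 3 without (purple), with the mean and SD beside the points. At Tcl1 the libraries with Nanog (39.1 to 43.5 CPM) stand above those without (18.8 to 26.6 CPM), and at Fbxo15 they stand below. The lines also do not overlap at Sall4, Utf1, Zfp281 and Dppa5a, where they are higher with Nanog, or at Dppa4, where they are lower. None of these further differences was called, and the share of all regions without overlap was not counted.

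Levels were compared between genes as CPM per kb at the strongest region. This is the region of highest mean log CPM over all 6 libraries, and not always that of highest CPM per kb. Without Nanog, another region had the higher mean CPM at Sall1 (102.9 against 89.2) and at Tcl1 (27.6 against 23.5). With Nanog the values were 71.2 for Fbxo15, 69.4 for Sall1, 63.1 for Dppa2, 54.5 for Zfp281, 48.8 for Utf1, 45.8 for Sall4, 43.7 for Dppa5a, 43.3 for Dppa4, 40.3 for Tcl1 and 24.6 for Lin28a. Neighbours in this order overlapped over their 3 libraries from Fbxo15 through Zfp281 and from Dppa5a through Tcl1; Zfp281 and Utf1, Utf1 and Sall4, Sall4 and Dppa5a, and Tcl1 and Lin28a did not. At the same regions without Nanog, Fbxo15 had 85.4 CPM per kb and Sall1 63.1, without overlap, and Tcl1 had the lowest value (22.5, overlapping Lin28a with 25.9). The Tcl1 region at 49.85 kb had 58.2 CPM per kb without Nanog. The order belongs to these regions and not to the genes, since narrower regions stood higher per kb. The upstream Sall1 region had 75.7 CPM per kb with Nanog and 99.3 without, above Fbxo15 in both lines. A second Utf1 region (chr7:139951748-139952761) had 69.2 with Nanog and 72.8 without, and a second Dppa5a region (chr9:78370824-78372028) had 63.1 with Nanog and 60.3 without.

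The authors' peak lists, 1 per line and made from the same libraries, held 62 of the 126 regions in both lists, 62 in that of the line with Nanog only and 2 in that of the line without Nanog only. That is 49.2% in both lists, against 37.8% of all regions, and 49.2% in the list with Nanog only, against 61.4% of all regions. Under a reciprocal overlap of 50%, 40 of the 126 were in both lists. Most regions listed for a single line were not called in the counts. Of the 62 regions listed only with Nanog, 5 were called higher, 2 lower and 52 were not called, and 3 were not tested. Of the 62 in both lists, 9 were higher and 15 lower. Both regions listed only without Nanog, at Lin28a and Sall4, were lower with Nanog. Lists and counts share their libraries, so this direction is largely set by the listing and is no independent support for the calls. Calls were not split by peak list over all regions, so these numbers cannot be read as particular to the genes described here. The libraries with Nanog also had more reads counted in regions, and the part of this in the lists was not tested. Sequencing depth itself was not examined.

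These 10 genes were set beside 30 other genes of the pluripotency network, from Pou5f1 and Klf4 to Tet1 and Jarid2, which by the same rule had 430 regions near 28 of them. That list was chosen with earlier results of these data known. With Nanog, 14 regions were higher and 19 lower of 123 tested at the 10 genes, with a median log2 fold change of 0.0019. At the other genes, 59 (13.9%) were higher and 19 (4.48%) lower of 424 tested, with a median of 0.16. Summed by gene, 0 of the 10 genes were called higher, against 6 of the 28 others (Pou5f1, Klf4, Esrrb, Prdm14, Nr0b1 and Sall3) and 9.93% of all genes tested. None (0) of the 28 was lower in edgeR, DESeq2 or limma-voom, and 1 was lower at an unadjusted p under 0.05 in edgeR. Among the spalt-like paralogues, the summed log2 fold change was 0.13 for Sall1 (edgeR, adjusted p = 0.0794) and -0.13 for Sall4 (0.108), beside 0.29 for Sall2 (0.291) and 0.50 for Sall3 (0.00185). The difference between the lists and that between the paralogues were not tested.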

How the data were processed

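ESRRB ChIP-seq of mouse ES cells was analysed from the authors' deposited table of read counts per region and from their deposited peak list for each line. The submitters' processing notes name build mm10, bcl2fastq 2.19.1, Bowtie2, SAMtools 1.4.1, deepTools, MACS2 and bedtools 2.26.0, with settings not given in the sources used here. Peak lists hold positions only. Columns carry a line and a letter, A to C, and were mapped to the line; the inputs were not used.

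The whole table was fitted in edgeR 4.0.16 (R 4.3.3): TMM scaling, filterByExpr (84892 of 86201 regions kept), quasi-likelihood test of the line, Benjamini-Hochberg adjustment, threshold 0.05. CPM and log2 fold changes are TMM-scaled, the SE is the fold change divided by the square root of F, and errors of means are SDs over 3 libraries. A change in signal shared by most regions would be removed by TMM scaling and would not show. Counts were also summed per nearest gene. In a check added after the results were seen, edgeR's diffSpliceDGE tested unequal change among the regions of a gene. The method was tested on simulated data. Alternatives were column totals, DESeq2 1.42.0 and its size factors, limma 3.58.1 (voom), no filter, a mean count of at least 50, a loess offset, thinning to equal totals, a replicate block, each library left out, 50 kb, and leaving out regions in overlapping genes. Peak lists were matched by at least 1 base.

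Described in full are each gene's strongest region (highest mean log CPM) and its region of smallest adjusted p. Genes and lists were chosen with earlier results of these data known. Gene positions are RefSeq, GRCm38.p6. Same-lettered libraries were not treated as pairs. Without molecular identifiers, reads are not independent molecules.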

Additional observations from a re-analysis of the deposited data

How the results depend on the processing

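The count of regions lower with Nanog was 10 with DESeq2 and 11 after thinning to equal totals, against 19 as reported; over the leave-outs of single libraries, 6 to 14 regions were higher and 8 to 15 lower. Summed by gene, 1 gene was called higher with column totals, 1 with the loess offset and 2 within 50 kb, and over the leave-outs 0 to 2 were higher and 0 to 1 lower. The deviations of same-lettered libraries correlated at 0.083, 0.22 and 0.13, against -0.16 to 0.045 for different letters across the lines; every library correlated best with its own letter, a hint from the data that the labels do not back, and no pairing was assumed. The replicate block gave 18 higher and 23 lower regions, and 1 higher and 3 lower summed genes. A reciprocal overlap of 50% left 40 regions in both peak lists, against 62. The sign turned at the strongest Lin28a region (-0.18 to 0.10 over the leave-outs, positive without library A of either line), for the Zfp281 sum within 50 kb (0.0041) and for the Tcl1 sum (-0.0058 without library A of the line without Nanog, up to 0.12); none of these was called, and the causes were not tested. The loess offset called the strongest regions of Sall4, Utf1, Zfp281 and Dppa5a higher (adjusted p 0.0115, 0.0265, 0.0103 and 0.00302 in edgeR). Of the 33 calls, 14 to 25 held on leaving out a library and 20 of 30 with DESeq2. Low counts limit weak regions: the median region had 44 to 56 reads per library with Nanog and 18 to 34 without.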
